A study of Mus musculus with 7 samples.

Results

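Lipid droplet and fatty acid handling was examined through 10 genes, chosen by symbol for their place in fatty acid binding, uptake, storage and release: Fabp4, Fabp5, Cd36, Lpl, Acsl1, Dgat1, Plin2, Pnpla2, G0s2 and Hilpda. All 10 were among the 16047 genes of the table, and all 10 passed the filter of a mean of at least 1 RPKM (reads scaled to the length of the transcript and to the depth of the library) that left 9594 genes to test. The libraries were 3′ RNA-seq libraries of neutrophils (Ly6G+ CD11b+ Ly6Clo and CX3CR1-GFP-) sorted from the livers of C57BL/6 mice 24 h after acetaminophen-induced liver injury (AILI), at 50000 cells per liver. Acetaminophen was given at 300 mg/kg to male mice of 8 to 12 weeks after a 12 h fast, and food was returned 2 h later. The PBS group held 4 mice (numbers 5 to 8), which received PBS from 12 h before acetaminophen and every 24 h. The MC-21 group held 3 mice (numbers 2 to 4), which received MC-21, an antibody to CCR2, in medium (400 µL per injection, 29 µg/mL) from 12 h before acetaminophen and every 24 h, which depletes the Ly6Chi monocytes of blood and liver. Both groups had the injury, so no library shows uninjured liver, and the study's methods name wild-type as well as Cx3cr1gfp/+ mice while the labels give the strain and the gate. Each library is 1 mouse. The comparison asks how the lipid handling genes of neutrophils differed between PBS livers and livers depleted of infiltrating monocytes by MC-21. The antibody came in medium and the controls received PBS, so medium, antibody and loss of monocytes cannot be told apart here.

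Fatty acids enter a cell by diffusion or through carriers such as CD36, or are freed from lipoproteins outside it by lipoprotein lipase. Inside, they are carried by fatty acid binding proteins, activated to acyl-CoA, and either oxidised or joined to glycerol and stored as triglyceride in lipid droplets, which are coated by perilipins. Adipose triglyceride lipase (ATGL) opens the stored triglyceride again and is held back by 2 small inhibitors, G0S2 and HILPDA. Mature neutrophils rely largely on glycolysis, and their lipid droplets are known as sites of eicosanoid synthesis.

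The 2 fatty acid binding protein genes and Hilpda were the members that stood highest in the neutrophils of monocyte-deficient livers ("MC-21 neutrophils"), at 2.57-fold for Fabp4, 2.58-fold for Fabp5 and 3.48-fold for Hilpda. Lpl was the member that stood lowest there, at 0.253-fold. Plin2 and Dgat1, the droplet coat and the last enzyme of triglyceride synthesis, had estimates near 0. These folds are on the scale of log2(RPKM + 1), without further scaling between libraries. With limma and Benjamini-Hochberg adjustment over all genes tested, 2 of 10 members passed an adjusted p of 0.05 (Fabp4 and Hilpda, both higher), against 0.625% of all genes (60 of 9594). An unadjusted p under 0.05 was reached by 8 of 10 members, 7 of them higher, against 14.7% of all genes. The cutoffs of the study's methods, which add at least a 2-fold change, were passed by 4 of 10 (Fabp4, Fabp5, Hilpda and Lpl), against 2.70% of all genes. The study named these 4 genes from these same libraries, so the counts are no independent evidence of a direction.

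The 3 MC-21 libraries all exceeded the 4 PBS libraries for 5 of 10 members (Fabp4, Fabp5, Hilpda, Pnpla2 and Acsl1), which held for 3.10% of the genes tested. They were all below them for 1 member, Lpl, against 10.2% of the genes tested. The median log2 difference of the 10 members was 0.55, beside -0.15 over all genes tested. Centring each library on its median moved the median of all genes to 0.02 and that of the members to 0.71. Of the estimates 8 of 10 were above 0, beside 30.6% of all genes, and centring turned the sign of Plin2 alone among the members.

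**Figure D1:**
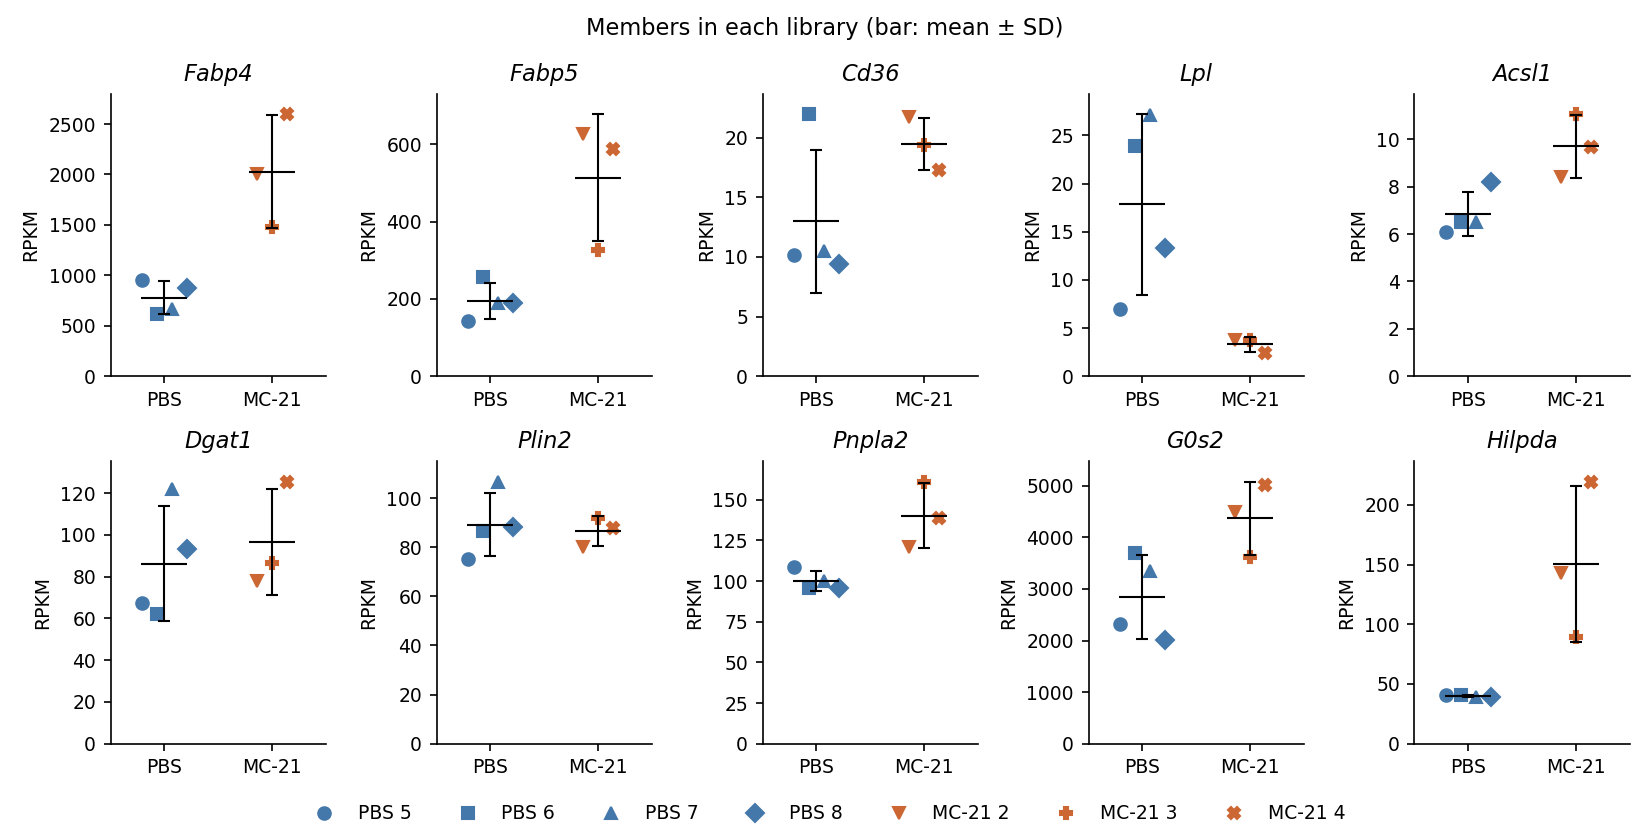
RPKM of each of the 10 genes in the 4 PBS and 3 MC-21 libraries, 1 symbol per library, with a bar at the mean and whiskers of 1 SD. Fabp4, Fabp5, Hilpda, Pnpla2 and Acsl1 show no overlap between the groups with MC-21 higher, and Lpl shows none with MC-21 lower.

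**Figure D2:**
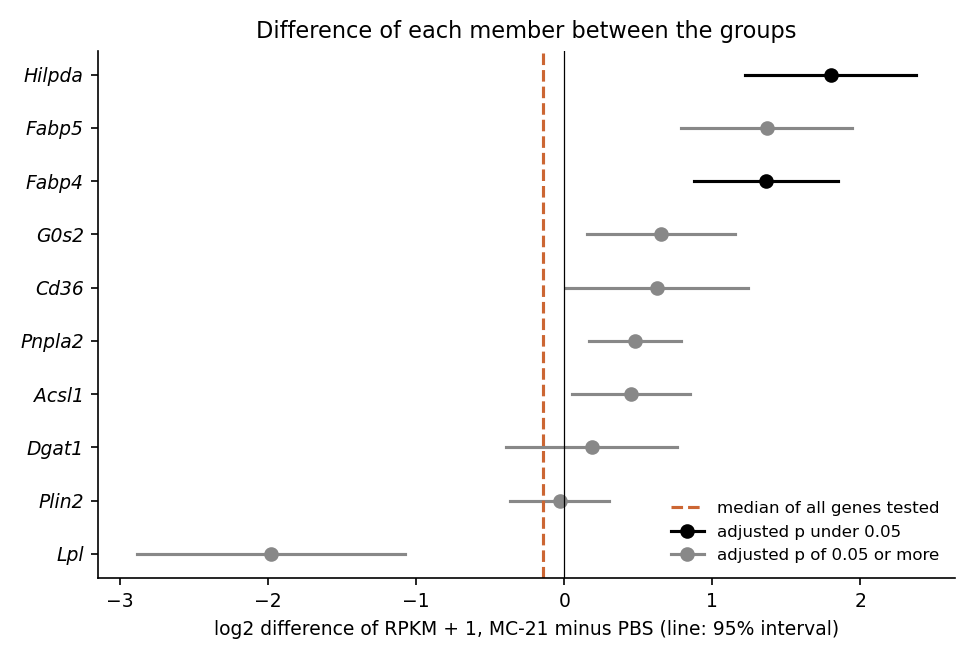
Difference of each gene on the log2(RPKM + 1) scale, MC-21 minus PBS, with its 95% confidence interval from limma, and the median of all genes tested as a dashed line at -0.15. Fabp4 and Hilpda, in black, are the members with an adjusted p under 0.05.

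In the PBS libraries, which give the level with monocytes present, the members spanned from 2842 to 6.84 RPKM in their means. G0s2 was the highest at 2842 ± 808 RPKM (SD, n = 4) and ranked 14 of 16047 genes by its mean over all libraries. Fabp4 followed at 780 ± 161 RPKM and rank 48, and Fabp5 at 195 ± 46.2 RPKM. Pnpla2, Plin2 and Dgat1 came next with ranges of 95.6 to 109, 75.3 to 107 and 62.3 to 122 RPKM, which overlapped each other. Hilpda stood below them at 39.8 RPKM in a range that touched no neighbour's. Lpl and Cd36 overlapped at 17.8 and 13.0 RPKM, and Acsl1 was the lowest at 6.84 RPKM. In 3′ libraries a transcript gives reads from its end whatever its length, so RPKM understates long transcripts. Multiplied by the length of the longest coding transcript, the PBS mean of Pnpla2 passed that of Fabp5, and those of Lpl and Cd36 passed that of Hilpda, while G0s2, Fabp4 and Acsl1 kept their places.

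The depth, read from the steps between low RPKM values, gave 1.59 (MC-21 replicate 3) to 3.96 reads for 1 RPKM of a transcript of 1 kb. The libraries had 12376 to 13864 genes above 0. By that depth and the transcript lengths, the members rested on about 24 reads (Lpl in its lowest library) to 13489 reads (G0s2 in its highest), and Acsl1 on 66 to 127. Ccr2, the target of the antibody, read 1.92 to 3.26 RPKM in PBS and 0 to 0.390 RPKM in MC-21 libraries (log2 difference -1.51, adjusted p = 0.0263). The neutrophil markers were high throughout, with S100a9 at 12275 to 25041 RPKM. RNA of other liver cells was present too. Its level is given beside Fabp4 and Lpl and, for hepatocytes and platelets, in a later paragraph. Its part in the values of any member was not tested. In bulk RNA, fewer cells of a type and less RNA per cell cannot be told apart.

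Fabp4 and Fabp5 encode cytosolic proteins that bind long-chain fatty acids and carry them between membranes, and FABP4 is best known from adipocytes, macrophages and capillary endothelium. The 2 genes lie 187740 bases apart in mm9, Fabp5 on the plus strand (chr3:10012548-10016607) and Fabp4 on the minus strand (chr3:10204347-10208576). Fabp4 read 953, 617, 671 and 877 RPKM in PBS mice 5 to 8, and 2005, 1476 and 2596 RPKM in MC-21 mice 2 to 4. Its lowest MC-21 library was thus above its highest PBS library. The means were 780 ± 161 RPKM (SD, n = 4) and 2026 ± 560 RPKM (SD, n = 3). Fabp4 rose by 1.36 on the log2 scale (95% interval 0.87 to 1.85, adjusted p = 0.0312). The call was lost without PBS replicate 7 or 8 (adjusted p = 0.0867 and 0.0953), without MC-21 replicate 2 or 4 (0.102 and 0.101), with limma without a trend (0.0528) and with no filter on low values (0.149), while the estimate stayed between 1.16 and 1.57 under the 13 alternatives.

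Fabp5 read 144, 256, 190 and 190 RPKM in PBS mice 5 to 8, and 628, 326 and 588 RPKM in MC-21 mice 2 to 4. The groups did not overlap here either, and MC-21 replicate 3 was again the lowest of its group. The log2 difference was 1.37 (95% interval 0.79 to 1.94, adjusted p = 0.0572), so the gene missed the threshold. It passed without MC-21 replicate 3 (adjusted p = 0.0302) or PBS replicate 6 (0.0414), on centred libraries (0.0367) and with a mean of at least 5 RPKM (0.0480). Under the other 9 alternatives Fabp5 did not pass, with an adjusted p of up to 0.192 (without MC-21 replicate 4). The last 500 bases of its transcript match 5 other places of the mouse genome at 95% identity or more, the longest over 232 bases at 100% identity, so reads of these copies could be counted in it or lost from it.

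The ratio of Fabp4 to Fabp5 within a library asks whether both genes moved alike. It was 6.63, 2.41, 3.54 and 4.60 in PBS mice 5 to 8 and 3.19, 4.52 and 4.42 in MC-21 mice 2 to 4. The groups overlapped and their log2 means differed by -0.01 (exact permutation p = 1 over 35 splits, two-sided, Benjamini-Hochberg p = 1 over the 3 ratios). Leaving out 1 library moved this difference between -0.25 and 0.23. PBS mice 5 and 6, which had the extreme ratios, were at opposite ends for both genes: mouse 5 was highest in Fabp4 and lowest in Fabp5 among the PBS libraries, and mouse 6 the reverse.

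Since endothelial cells and adipocytes express Fabp4, their markers were summed in each library. The 10 endothelial markers, among them Clec4g and Stab2 of liver sinusoids, summed to 1406 to 2860 RPKM in PBS and 1441 to 2500 RPKM in MC-21 libraries (exact permutation p = 0.514, two-sided, Benjamini-Hochberg p = 0.771 over 6 marker lists). The smallest p of 35 splits is 0.0286, so 1 list alone could not pass after adjustment over 6. A larger p therefore does not show that the groups were alike. Clec4g was the largest part of the sum in every library (PBS mean 1125 of 2199 RPKM). No endothelial marker was without overlap between the groups. Of 10 estimates 8 were below 0 (median -0.37), beside 69.4% of all genes, while Pecam1 and Stab2 were above it (0.31 and 0.16). An unadjusted limma p under 0.05 was reached by 1 of 10, Eng (-0.57), beside 11.2% of all genes for lower values. In the PBS group the libraries with the largest sums, of mice 5 and 8 at 2860 and 2573 RPKM, were those with most Fabp4. In the MC-21 group the library with the largest sum, of mouse 3 at 2500 RPKM, had least Fabp4. Of the adipocyte markers, Adipoq and Plin1 were at most 0.916 and 0.292 RPKM, and each was at 0 in at least 1 library. Cidea was above 0 in every library, at 1.29 to 12.6 RPKM in PBS and 2.47 to 9.14 RPKM in MC-21 libraries. Cfd and Cidec reached 2.85 and 2.19 RPKM in their highest libraries. The sum of the 5 measured was 2.28 to 18.7 RPKM in PBS and 4.09 to 13.1 RPKM in MC-21 libraries (Benjamini-Hochberg p = 0.943, exact permutation), with Lep not analysed here. The part of endothelial, adipocyte or macrophage RNA in the Fabp4 values was not tested.

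Cd36 encodes a scavenger receptor that also brings long-chain fatty acids into cells (mm9 chr5:17287508-17394777, minus strand). It read 10.1, 21.9, 10.5 and 9.38 RPKM in PBS mice 5 to 8, and 21.7, 19.4 and 17.3 RPKM in MC-21 mice 2 to 4. PBS mouse 6 was above all 3 MC-21 libraries, and the other 3 PBS libraries were below them. The log2 difference was 0.62 (95% interval 0.01 to 1.24, adjusted p = 0.333) and 0.89 without PBS replicate 6 (adjusted p = 0.0579). Cd36 was called under none of the 13 alternatives, with an adjusted p of up to 0.608 (without PBS replicate 8).

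Lpl encodes the lipase that frees fatty acids from circulating lipoproteins at the capillary wall (mm9 chr8:71404390-71431347, plus strand). It read 6.97, 24.0, 27.1 and 13.3 RPKM in PBS mice 5 to 8, and 3.80, 3.72 and 2.40 RPKM in MC-21 mice 2 to 4. The PBS libraries were spread widely, yet the lowest was above all MC-21 libraries. On the log2 scale MC-21 differed from PBS by -1.98 (95% interval -2.88 to -1.08, adjusted p = 0.0730). Without PBS replicate 5, the lowest of its group, it was -2.34 (adjusted p = 0.0202). Lpl was not called under the other 12 alternatives, with an adjusted p of up to 0.225 (without MC-21 replicate 4).

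Lpl is also expressed by macrophages, so the 12 monocyte and macrophage markers were summed in each library. The sum was 256, 363, 339 and 353 RPKM in PBS and 231, 239 and 179 RPKM in MC-21 libraries (exact permutation p = 0.0571, two-sided, Benjamini-Hochberg p = 0.229 over 6 lists). The groups did not overlap, and the means were 328 and 216 RPKM. Of the 12 markers 4 were lower in every MC-21 library, among them Cd68, Cx3cr1 and Ccr2, beside 10.2% of the genes tested. Only Ccr2 passed an adjusted p of 0.05. Of the 10 markers tested, 9 had estimates below 0 (median log2 difference -0.62), beside 69.4% of all genes. An unadjusted limma p under 0.05 was reached by 7 of 10, all lower, beside 11.2% of all genes. The others overlapped. Csf1r, Cd5l and Marco had log2 differences of -0.58, -0.67 and -0.51. Adgre1 and Mrc1 had differences of 0.02 and -0.18 and Clec4f one of -0.28, and Mertk and Timd4 stayed under 1 RPKM throughout. PBS mouse 5 was lowest of its group both in Lpl and in this sum. The part of these cells' RNA in the Lpl values was not tested.

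GPIHBP1 carries lipoprotein lipase across capillary endothelium and anchors it there. Gpihbp1 read 3262, 1490, 1383 and 2342 RPKM in PBS mice 5 to 8, and 1080, 1805 and 1275 RPKM in MC-21 mice 2 to 4. The groups overlapped (log2 difference -0.56, adjusted p = 0.433), and the libraries with most Gpihbp1 in each group were those with the largest endothelial sums.

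Acsl1 encodes a long-chain acyl-CoA synthetase, which activates fatty acids for storage or oxidation (mm9 chr8:47556395-47621405, plus strand). It read 6.10, 6.53, 6.52 and 8.20 RPKM in PBS mice 5 to 8, and 8.41, 11.1 and 9.66 RPKM in MC-21 mice 2 to 4. The groups were apart by a narrow margin, between PBS mouse 8 and MC-21 mouse 2. This gave a log2 difference of 0.45 (95% interval 0.05 to 0.85, adjusted p = 0.296).

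Dgat1 encodes the enzyme that adds the last fatty acid in triglyceride synthesis (mm9 chr15:76332445-76342381, minus strand). It read 67.2, 62.3, 122 and 93.3 RPKM in PBS mice 5 to 8, and 78.0, 86.6 and 125 RPKM in MC-21 mice 2 to 4. The groups overlapped almost wholly, with a log2 difference of 0.18 (95% interval -0.39 to 0.76, adjusted p = 0.778). Its sign turned without MC-21 replicate 4 (-0.02).

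Plin2 encodes the perilipin that coats lipid droplets in most cells outside fat tissue (mm9 chr4:86294290-86315964, minus strand). It read 75.3, 86.6, 107 and 88.3 RPKM in PBS mice 5 to 8, and 80.1, 91.9 and 88.0 RPKM in MC-21 mice 2 to 4. All 3 MC-21 libraries lay inside the PBS range. The log2 difference was -0.03 (95% interval -0.37 to 0.30, adjusted p = 0.942), an interval that leaves out a change of 1.5-fold or more in either direction on this scale. It was 0.13 on centred libraries and 0.00404 with quantile normalization. The last 500 bases of its transcript match 1 other place of the genome over 501 bases at 96.0% identity, so its reads could be shared with that copy.

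The lipase of stored triglyceride and its 2 inhibitors had estimates above 0, and of these 3 genes Hilpda passed the threshold. The start regions of these genes are shown so that the reader can compare what stands before a gene that rose with what stands before the 2 that missed the threshold. They come from RefSeq (GRCm38.p6), whose table held windows for 6 of 10 members (Plin2, Hilpda, G0s2, Pnpla2, Cd36 and Acsl1) and not for Fabp4, Fabp5, Dgat1 and Lpl. The first 3 lines give the 250 bases before the start on the gene's strand. The last 2 give 25 bases around a match to ACGTG, the core letters of the hypoxia response element, in capitals. Plin2 has it within CACGTG, an E-box that reads the same on both strands.
Hilpda, first start, chr6:29272238-29272487, plus strand: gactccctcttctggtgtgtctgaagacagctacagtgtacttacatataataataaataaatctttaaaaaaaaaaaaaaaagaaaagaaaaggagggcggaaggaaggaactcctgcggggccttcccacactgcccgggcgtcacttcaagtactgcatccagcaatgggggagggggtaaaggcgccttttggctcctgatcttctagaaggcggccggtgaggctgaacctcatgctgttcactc
G0s2, chr1:193273189-193273438, minus strand: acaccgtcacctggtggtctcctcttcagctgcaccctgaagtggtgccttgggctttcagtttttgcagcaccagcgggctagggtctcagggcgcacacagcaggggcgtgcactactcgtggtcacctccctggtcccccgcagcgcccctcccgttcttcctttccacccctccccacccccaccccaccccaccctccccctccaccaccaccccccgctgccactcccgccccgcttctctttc
Pnpla2, chr7:141454938-141455187, plus strand: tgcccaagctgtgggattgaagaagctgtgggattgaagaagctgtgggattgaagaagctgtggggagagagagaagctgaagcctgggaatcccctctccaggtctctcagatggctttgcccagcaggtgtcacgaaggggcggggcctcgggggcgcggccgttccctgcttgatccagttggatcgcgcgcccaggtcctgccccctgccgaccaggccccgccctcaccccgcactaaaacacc
Hilpda, before its second start: tggccagcggACGTGccccagggcg
Plin2, at its start: gctgggctatCACGTGgctcggagg

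The Hilpda match begins 43 bases before the second annotated start, in the window chr6:29272376-29272675, and the Plin2 match 4 bases before the start, in the window chr4:86670010-86670309 on the minus strand. ACGTG on either strand is in 19.6% of all 32851 windows of 300 bases and CACGTG, which holds it, in 7.15%, so a match is a description of letters and no evidence of use. The windows of G0s2, Pnpla2, Cd36 and Acsl1 do not hold ACGTG. The other form, GCGTG, was not counted over all windows. It is present, on 1 strand or the other, before starts of G0s2, Acsl1, Plin2 and Hilpda. Plin2 and Cd36 hold AGGTCA, the half-site of nuclear receptors such as the PPARs, which 16.3% of windows hold. Its direct repeat, AGGTCA followed after any 1 base by AGGTCA, is in no member's window and in 0.0396% of all windows. Of the 2 genes with the ACGTG letters, Hilpda rose and Plin2 lay inside the PBS range.

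Hilpda encodes a small droplet protein induced in low oxygen, which inhibits ATGL (mm9 chr6:29222488-29225446, plus strand). It read 40.5, 40.5, 38.8 and 39.3 RPKM in PBS mice 5 to 8, and 142, 89.2 and 219 RPKM in MC-21 mice 2 to 4. The PBS libraries were nearly alike, with an SD of 0.887 RPKM, while the MC-21 libraries differed by up to 2.46-fold among themselves. Hilpda rose by 1.80 on the log2 scale (95% interval 1.22 to 2.37, adjusted p = 0.0172). The call was lost without PBS replicate 7 or 8 (adjusted p = 0.0571 and 0.0830), without MC-21 replicate 2 (0.0663) and with no filter on low values (0.103), and the estimate stayed between 1.48 and 2.12 under the 13 alternatives.

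G0s2 encodes the other inhibitor, known as a gene switched on when resting blood cells enter the cycle (mm9 chr1:195098355-195099382, minus strand). It read 2319, 3690, 3356 and 2005 RPKM in PBS mice 5 to 8, and 4484, 3618 and 5014 RPKM in MC-21 mice 2 to 4. MC-21 mouse 3 lay below PBS mouse 6, so the groups overlapped. Its log2 difference was 0.65 (95% interval 0.15 to 1.15, adjusted p = 0.241).

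Pnpla2 encodes ATGL, which takes the first fatty acid off stored triglyceride (mm9 chr7:148641097-148646642, plus strand). It read 109, 95.6, 99.9 and 95.7 RPKM in PBS mice 5 to 8, and 121, 161 and 139 RPKM in MC-21 mice 2 to 4. The groups did not overlap, and MC-21 mouse 3, lowest of its group in both inhibitors, was the highest in the lipase. The log2 difference was 0.48 (95% interval 0.16 to 0.79, adjusted p = 0.182).

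The ratio of Hilpda to Pnpla2 was 0.373, 0.423, 0.388 and 0.410 in PBS mice 5 to 8, and 1.18, 0.554 and 1.58 in MC-21 mice 2 to 4. The MC-21 libraries were thus all above the PBS libraries in this ratio. The log2 means differed by 1.34, a 2.54-fold difference (exact permutation p = 0.0286, the smallest that 35 splits allow, two-sided, Benjamini-Hochberg p = 0.0857 over 3 ratios). The ratio of G0s2 to Pnpla2 was 21.3, 38.6, 33.6 and 20.9 in PBS mice and 37.0, 22.5 and 36.1 in MC-21 mice. Here the groups overlapped, with a log2 difference of 0.17 (exact permutation p = 0.6, Benjamini-Hochberg p = 0.9). G0s2 stood over 20-fold above the lipase in every library, on the RPKM scale, which understates long transcripts here. In estimated reads, which are not divided by length, G0s2 had 4848 to 13489, Pnpla2 672 to 1135 and Hilpda 101 to 598 per library.

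**Figure D3:**
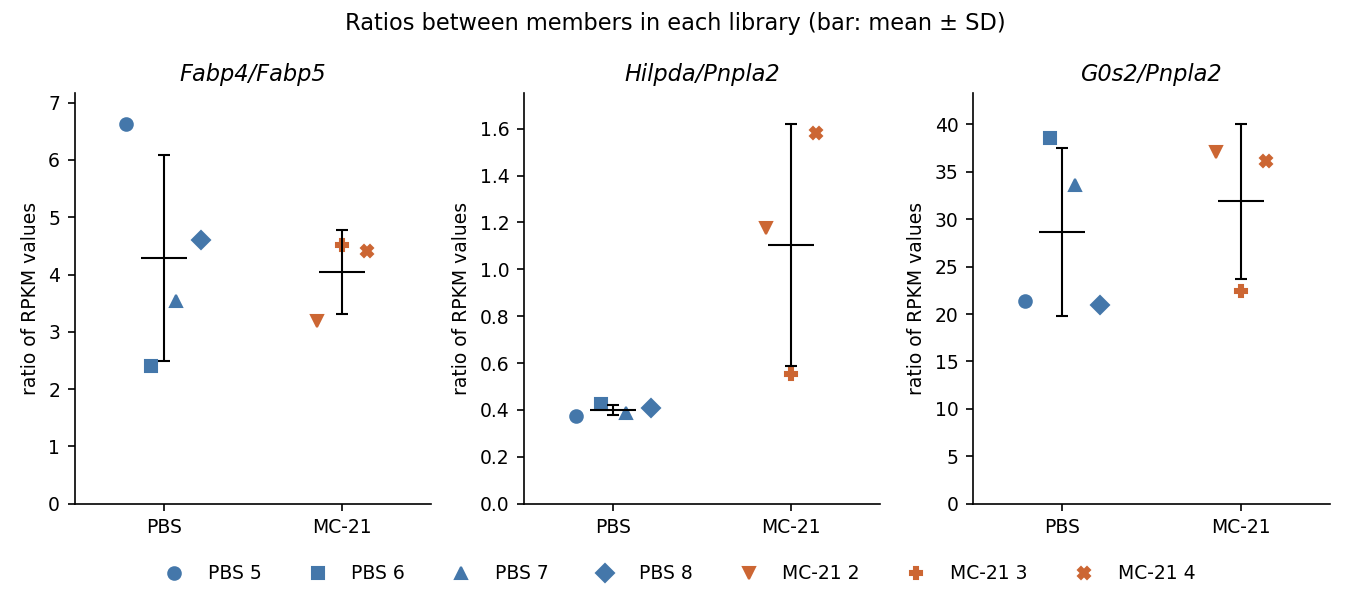
Ratios of RPKM values of Fabp4 to Fabp5, Hilpda to Pnpla2 and G0s2 to Pnpla2 in each library, with a bar at the mean and whiskers of 1 SD. The Hilpda to Pnpla2 ratio lies between 0.373 and 0.423 in PBS and between 0.554 and 1.58 in MC-21 libraries, and the other ratios overlap.

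The MC-21 libraries kept a common order in several members. MC-21 mouse 3 was the lowest of its group in Fabp4, Fabp5, Hilpda and G0s2 and the highest in Pnpla2, Plin2 and Acsl1. MC-21 mouse 4 was the highest in Fabp4, Hilpda, G0s2 and Dgat1 and the lowest in Cd36 and Lpl. The library of mouse 3 also had the least depth and the largest endothelial sum of its group. Their part in this order was not tested. The sum of 8 neutrophil markers was 18085 to 30670 RPKM in PBS and 27788 to 41468 RPKM in MC-21 libraries, with an overlap (exact permutation p = 0.114, Benjamini-Hochberg p = 0.229), and mouse 2 was the lowest of the MC-21 group in it. Most of that sum was S100a9. The median log2 difference of the 8 neutrophil markers was 0.47, beside 0.55 for the members. None passed an adjusted p of 0.05, and 4 of 8 had an unadjusted limma p under 0.05, all higher, beside 3.59% of all genes. They were S100a9 (0.46), S100a8 (0.83), Retnlg (0.83) and Il1r2 (0.98), the last without overlap. Csf3r and Mmp9 had differences of -0.01 and -0.03, and Cxcr2 and Ly6g had 0.38 and 0.48.

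Beside the members, 108 other genes of lipid handling and its regulators were listed in 9 groups, of which 106 were in the table and 82 could be tested. Of these, 2 rose (Olr1 and Lipg) and 1 fell (Lrp1), all in the lipoprotein list, and all 3 had been named by the study from these libraries. Lipg passed the filter on low values only through the MC-21 libraries, where it was high, so its call is no independent support. The median of the 82 genes was -0.21 on the log2 scale, beside -0.15 over all genes tested. Over all genes tested, 69.4% of estimates were below 0, 11.2% were lower at an unadjusted p under 0.05 and 3.59% were higher, and the counts of each list stand beside these shares. The medians of the 9 lists ranged from -0.46 to 0.11, and no list apart from that of lipoprotein uptake held a gene with an adjusted p under 0.05.

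**Figure D4:**
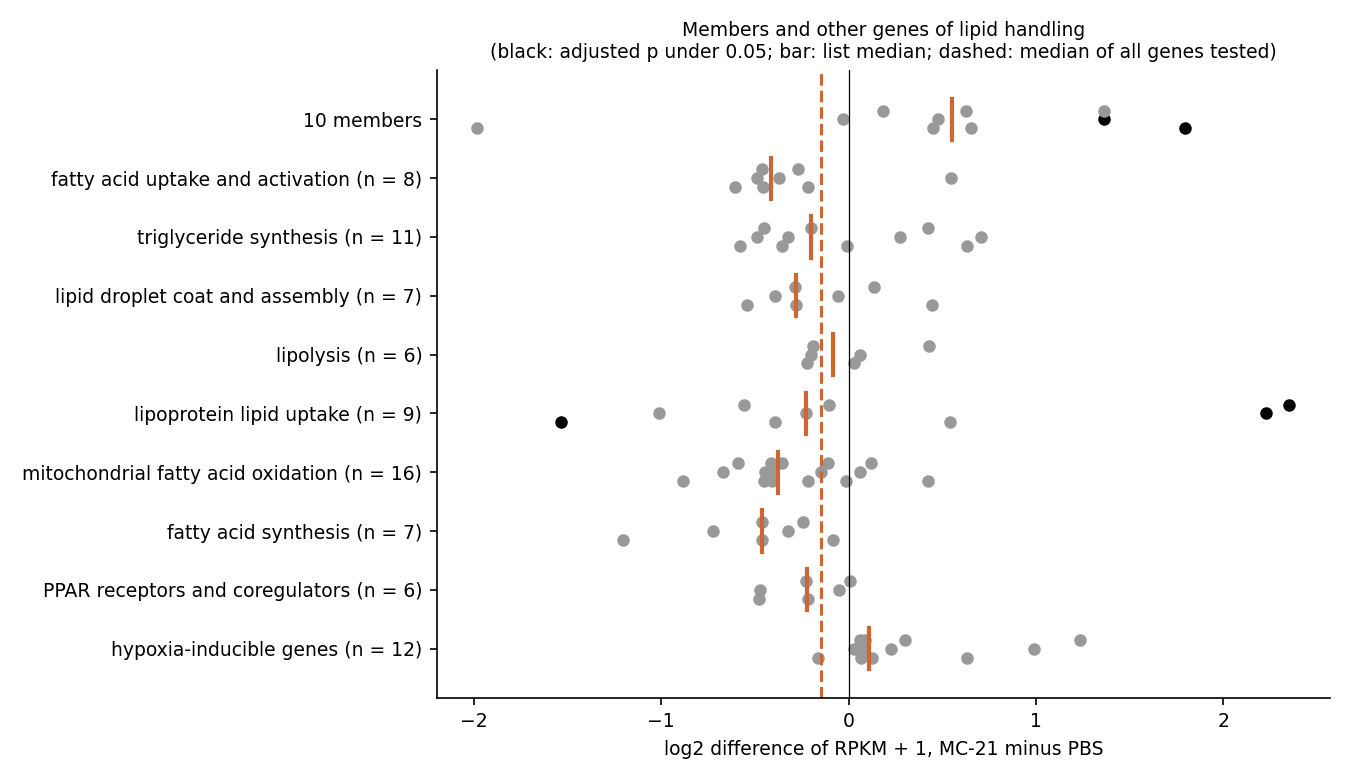
Log2 difference of RPKM + 1, MC-21 minus PBS, of the 10 members and of the tested genes of 9 lists, 1 point per gene, black where the adjusted p is under 0.05. The bar is the median of a list, from -0.46 in fatty acid synthesis to 0.11 in hypoxia-inducible genes and 0.55 in the members, and the dashed line is the median of all genes tested.

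Among 9 tested genes of lipoprotein lipid uptake, the scavenger receptor for oxidised LDL, Olr1, read 2.53, 9.93, 6.64 and 3.75 RPKM in PBS mice 5 to 8, and 34.0, 20.3 and 30.6 RPKM in MC-21 mice 2 to 4 (log2 difference 2.23, adjusted p = 0.0378). Lipg, which encodes endothelial lipase, was under 1 RPKM in every PBS library (0.477 to 0.794) and read 6.21, 4.15 and 15.95 RPKM in MC-21 mice 2 to 4 (log2 difference 2.35, adjusted p = 0.0277). Both groups of libraries were apart for both genes, and MC-21 mouse 3 was the lowest of its group in each. Lipg had a mean of 0.683 RPKM in PBS and 8.77 RPKM in MC-21 libraries, so only the MC-21 libraries brought it past the filter of 1 RPKM. Lrp1, an endocytic receptor of lipoprotein remnants, read 5.05 to 11.4 RPKM in PBS and 1.35 to 2.19 RPKM in MC-21 libraries (log2 difference -1.53, adjusted p = 0.0412). Angptl4, a secreted inhibitor of lipoprotein lipase, read 23.4, 5.84, 10.7 and 10.6 RPKM in PBS mice and 5.88, 3.30 and 6.61 RPKM in MC-21 mice, with an overlap (log2 difference -1.01, adjusted p = 0.285). Over the alternatives that kept each gene, the adjusted p reached up to 0.155 for Olr1, 0.127 for Lipg and 0.150 for Lrp1.

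None of the 8 tested genes of fatty acid uptake and activation passed, and 7 of 8 estimates were below 0, beside 69.4% of all genes (median -0.41), with an unadjusted limma p under 0.05 for 1, lower. Dbi, the acyl-CoA binding protein and the most abundant of them at 131 RPKM over all libraries, had a log2 difference of -0.49 (adjusted p = 0.328), and Slc27a3, a fatty acid transport protein, one of -0.46 (adjusted p = 0.418). In these lists, Acsl6 and Vldlr were not analysed here. Of 11 tested genes of triglyceride synthesis none passed (median -0.20), and 3 had an unadjusted p under 0.05, 1 higher and 2 lower. Dgat2, which catalyses the same step as Dgat1, read 17.1 to 22.2 RPKM in PBS and 20.3, 29.3 and 51.0 RPKM in MC-21 mice 2 to 4 (log2 difference 0.63, adjusted p = 0.327). Agpat4, an acyltransferase of an earlier step, was lower in every MC-21 library (log2 difference -0.58, adjusted p = 0.253), and the more abundant Agpat2 overlapped (-0.36, adjusted p = 0.369).

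The droplet coat and assembly list had 7 tested genes of 14, none of which passed (median -0.28), and 1 had an unadjusted p under 0.05. Plin1, Plin4 and Plin5 were below the filter, so Plin2 and Plin3 were the perilipins that could be compared. Aup1, a droplet protein of lipid storage and protein turnover, was lower in every MC-21 library (log2 difference -0.39, adjusted p = 0.306), and Hsd17b11, a dehydrogenase found on droplets, overlapped (0.45, adjusted p = 0.379). In lipolysis none of 6 passed, at an unadjusted p of 0.05 either (median -0.08). Abhd5, the coactivator of ATGL, read 7.54 to 8.84 RPKM in PBS and 5.79 to 8.98 RPKM in MC-21 libraries (log2 difference -0.22, adjusted p = 0.633). Mgll, which cleaves the last fatty acid, had a difference of 0.43 (adjusted p = 0.511), and Lipa, the lysosomal lipase, one of -0.19 (adjusted p = 0.671).

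In mitochondrial fatty acid oxidation, 0 of 16 passed and 13 of 16 estimates were below 0, beside 69.4% of all genes (median -0.38). An unadjusted p under 0.05 was reached by 5 of 16, all lower, beside 11.2% of all genes. Without overlap between the groups, 3 of 16 were lower, beside 10.2% of all genes, and 1 was higher, beside 3.10%. Hadh, which catalyses the third step of each cycle, was lower in every MC-21 library (log2 difference -0.67, adjusted p = 0.235), as was Echs1 of the step before (-0.42, adjusted p = 0.296). Etfb, an electron carrier and the most abundant of the list, overlapped (-0.15, adjusted p = 0.736). All 7 tested genes of fatty acid synthesis had estimates below 0, beside 69.4% of all genes (median -0.46), 3 of them with an unadjusted p under 0.05, beside 11.2%, and none passed. Scd2, a desaturase, was lower in every MC-21 library (log2 difference -1.21, adjusted p = 0.178), as was Acly, which makes cytosolic acetyl-CoA (-0.46, adjusted p = 0.283). Elovl1, an elongase and the most abundant of the list at 92.1 RPKM, had a difference of -0.08 (adjusted p = 0.798).

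Fabp4, Cd36, Lpl, Plin2 and Acsl1 are textbook targets of PPARs, nuclear receptors that are activated by fatty acids. In the list of these receptors and their coregulators none of 6 passed (median -0.22), and 1 had an unadjusted p under 0.05. Pparg read 6.07, 7.37, 9.39 and 9.56 RPKM in PBS mice 5 to 8, and 4.34, 4.87 and 7.58 RPKM in MC-21 mice 2 to 4 (log2 difference -0.48, adjusted p = 0.379). Rxra, a partner of these receptors, was lower in every MC-21 library (-0.47, adjusted p = 0.319), and Rxrb had a difference of 0.01 (adjusted p = 0.987). Of the 5 target genes Fabp4 rose, and the estimates of the others were 0.62 for Cd36, 0.45 for Acsl1, -0.03 for Plin2 and -1.98 for Lpl. These 5 are not a complete set of such targets, so their directions do not describe PPAR targets as a group.

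Since Hilpda is induced by hypoxia, 12 other hypoxia-inducible genes were listed, all of which could be tested and none of which passed an adjusted p of 0.05. Of their estimates 11 of 12 were above 0, beside 30.6% of all genes, and 3 had an unadjusted p under 0.05, all higher, beside 3.59%. Their median was 0.11, and 0.27 on centred libraries. Egln3, an oxygen sensor, read 7.84, 14.3, 15.5 and 10.3 RPKM in PBS mice 5 to 8, and 24.6, 18.1 and 30.9 RPKM in MC-21 mice 2 to 4. It was the only gene of the list without overlap (log2 difference 0.99, adjusted p = 0.147). Ankrd37 had a difference of 0.63 (adjusted p = 0.242) and the vasodilator gene Adm one of 1.24 (adjusted p = 0.266), both with 2 of 3 MC-21 libraries above all PBS libraries. Slc2a1, the main glucose carrier and the most abundant of the list, read 50.5, 53.0, 75.3 and 50.7 RPKM in PBS mice and 66.5, 45.4 and 113 RPKM in MC-21 mice (log2 difference 0.30, adjusted p = 0.664). In Hilpda, Egln3, Ankrd37, Adm and Slc2a1 alike, MC-21 mouse 4 was the highest of its group and mouse 3 the lowest. The others of the list, among them Vegfa, Bnip3 and Pdk1, had estimates between -0.16 and 0.23.

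**Figure D5:**
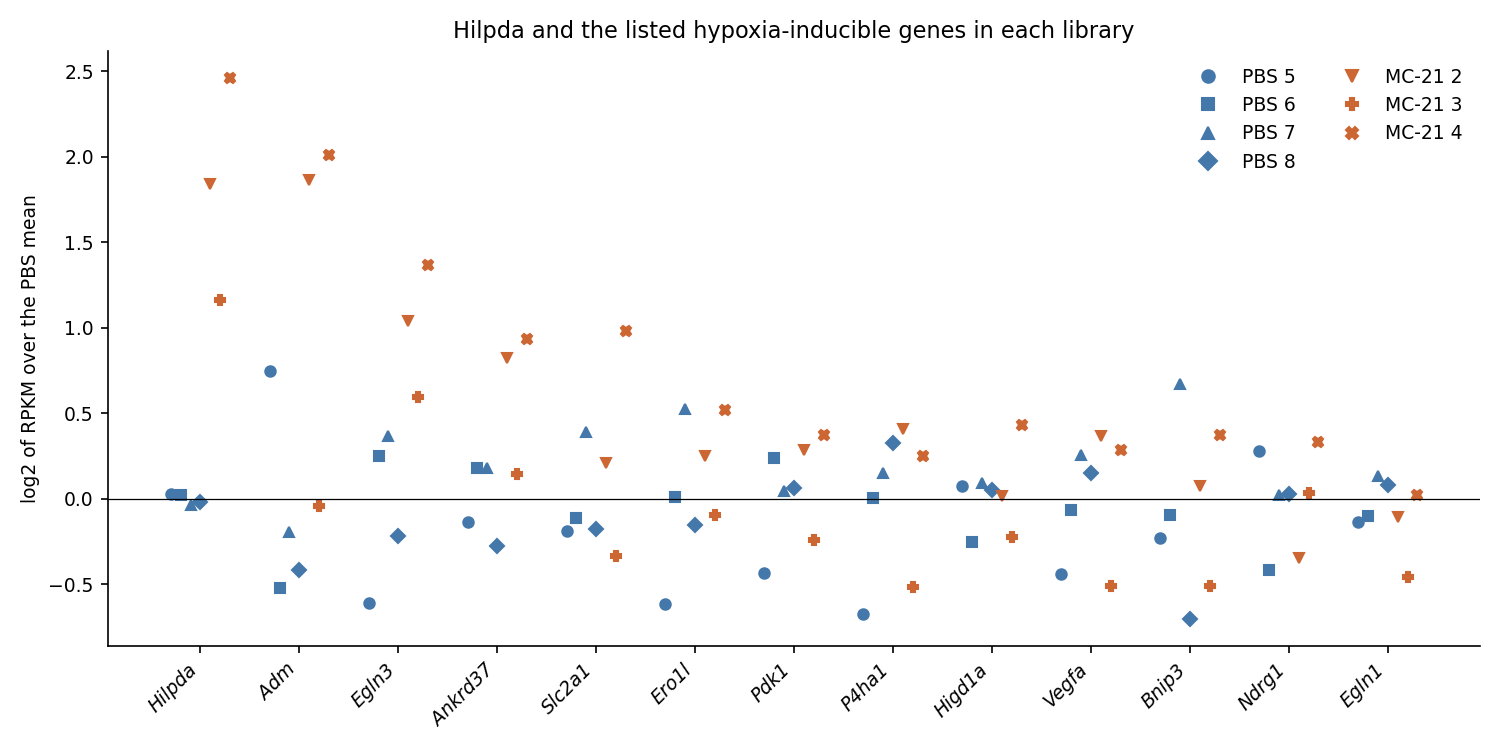
Log2 of RPKM over the PBS mean for Hilpda and 12 hypoxia-inducible genes in each library, ordered by their difference. Hilpda and Egln3 have all 3 MC-21 libraries above all PBS libraries, and MC-21 mouse 3 is the lowest of its group in the first 5 genes from the left.

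Hepatocyte and platelet RNA was measured as well. The 10 hepatocyte markers summed to 243 to 539 RPKM in PBS and 246 to 398 RPKM in MC-21 libraries (exact permutation p = 0.771, Benjamini-Hochberg p = 0.926). The 6 platelet markers summed to 88.7 to 256 RPKM in PBS and 47.8 to 74.3 RPKM in MC-21 libraries, with no overlap (exact permutation p = 0.114, Benjamini-Hochberg p = 0.229). That difference came with Pf4, at 75.0 to 244 RPKM in PBS and 36.7 to 60.9 RPKM in MC-21 libraries. Pf4 is also expressed by macrophages. The platelet gene Itga2b went the other way without overlap, at 2.30 to 3.26 RPKM in PBS and 3.56 to 4.32 RPKM in MC-21 libraries, and Gp9 overlapped (log2 difference 0.66).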

How the data were processed

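Neutrophils of 7 mice, 4 given PBS and 3 given MC-21, were profiled. The authors mapped reads to mm9 with HISAT 0.1.5 and deposited RPKM values per gene and library from Partek Genomics Suite 6.6; the annotation, multimapping and strand settings are not given in the sources used here. Differences were tested on log2(RPKM + 1) with limma 3.58.1 in R 4.3.3 (trend on) for 9594 genes, those whose mean reached 1 RPKM, with Benjamini-Hochberg adjustment over all of them. Ratios and marker sums were tested by exact permutation over 35 splits. Of 200 genes changed by 2 (log2) in simulated data for this comparison, on 9594 genes, 84% were recovered with 8 false calls. That change was larger than the estimate of every member, and the simulated noise was independent between genes. The share recovered therefore does not measure how well the test finds changes of the size seen in the members.

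Depth was inferred from the value of 1 read: 45.0% of 1054 low genes came within 1% of the modal depth, and 74.6% of 5543 low values then lay within 0.1 of a whole read, so reads are estimates. Coordinates and lengths came from GENCODE vM1 (mm9), copies from a search of transcript ends against mm9, and Agpat6 was read as Gpat4. Named are all members and, of each list, the genes with an adjusted p under 0.05, the next 2 by p and the most abundant one; Adm, further perilipins and the genes of the summary sentence on hypoxia were added after their values were seen. The members and lists were chosen with earlier results of these data known. The values of 1 gene of a marker list are not reported here. Replicates are separate mice. Alternatives were a pseudocount of 0.1, no filter, a mean of at least 5 RPKM, median centring, quantile normalization, limma without a trend and leaving out each library.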

Additional observations from a re-analysis of the deposited data

Results flagged for a closer look

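The PBS libraries were searched for single values that stand apart from the other 3 by Dixon's ratio (at its 95% critical value for 4 samples), over 46 values that the text gives. Of these 3 were past it, and chance alone gives about 1 in 20. Cd36 in PBS mouse 6 was 21.9 RPKM (ratio 0.909), above the other PBS libraries at 9.38 to 10.5 RPKM. Slc27a3 in PBS mouse 8 was 5.49 RPKM (ratio 0.976), above the others at 2.95 to 3.01 RPKM. Slc2a1 in PBS mouse 7 was 75.3 RPKM (ratio 0.898), above the others at 50.5 to 53.0 RPKM. The 3 values come from 3 different mice.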

How the results depend on the processing

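The direction of Fabp4, Fabp5, Hilpda, G0s2, Pnpla2, Cd36, Acsl1 and Lpl was kept under all 13 alternatives, and the 4 members past the cutoffs of the methods stayed the same 4 genes under each. Without a filter on low values, the genes called fell to 6 of all tested, 0 of the members and 0 of the other lipid genes. Without a trend, 1 member was called. Leaving out 1 library gave 9 (without PBS replicate 8) to 102 (without PBS replicate 6) genes called, 0 to 3 members and 0 to 2 other lipid genes, so the number of calls rests on single libraries. No member was called without PBS replicate 7 or 8 or MC-21 replicate 2. Higher genes were 19 of the 60 called, 44 of 74 on centred libraries and 26 of 55 with quantile normalization; Lrp1 was not called under either. Plin2 turned sign on centred libraries (0.13), with quantile normalization (0.00404) and within its range of -0.109 to 0.0563 without 1 library, and Dgat1 within -0.0161 to 0.368 without 1 library. For these 2 genes the cause was not tested. The ratio of Hilpda to Pnpla2 kept a log2 difference of 1.02 to 1.78 without 1 library, and that of G0s2 to Pnpla2 one of 0.04 to 0.41. No paired analysis was possible because the groups share no replicate number. The depth limits Lpl and Acsl1 most, at about 24 to 328 and 66 to 127 reads.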
